A study of Mus musculus with 30 samples.

Results

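The 30 genes described here are markers of macrophages and of Kupffer cells, the resident macrophages of the liver. They were chosen by name from the 41549 genes measured, with no threshold on their values, and all 30 were found. Earlier results of these data were known when the genes were chosen. They form 3 classes: 20 pan-macrophage genes, 3 lipid-associated macrophage genes (Trem2, Gpnmb and Cd9) and 7 genes of Kupffer and other resident macrophages (Clec4f, Timd4, Vsig4, Marco, Folr2, Lyve1 and Cd5l). Transcripts were measured by RNA sequencing in liver and in the inguinal white (iWAT) and interscapular brown (iBAT) fat of 5 LFABP-/- and 5 WT mice. LFABP-/- mice lack the liver fatty acid-binding protein, encoded by Fabp1, in the whole body. All mice were males on a C57Bl/6J background that ate a diet with 45% of its calories as fat for 12 weeks from 2 months of age and were fasted for 4 h before tissue collection, so no group on another diet is compared. The same 10 mice gave all 3 tissues and 30 libraries. Each library is whole tissue, in which fewer cells of a type and less RNA per cell cannot be told apart.

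Macrophages take up debris, dying cells, opsonised particles and lipid through surface receptors, and digest them in lysosomes. Their survival depends on CSF1R, which binds CSF1 and IL-34, and Fc receptors for immunoglobulin G signal through the adaptor chain encoded by Fcer1g, as TREM2 signals through the adaptor encoded by Tyrobp. In adipose tissue of obese mice, macrophages that surround dying adipocytes carry TREM2, GPNMB and CD9 and are known as lipid-associated macrophages. Kupffer cells lie in the liver sinusoids, where CLEC4F, VSIG4, MARCO and TIMD4 mark them, and they clear particles from portal blood. The transcription factor PU.1, which sets macrophage identity, binds DNA around a GAGGAA core.

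The stretch before the RefSeq start site (GRCm38.p6) was read for 23 of the 30 genes, which have 26 promoters in the table. The other 7 were Adgre1, Cd14, Csf1r, Lyve1, Msr1, Siglec1 and Tyrobp. Promoters of 5 receptors and surface proteins described in iWAT below are shown, of which Fcgr3 alone passed the test there. Each is given as the 250 bases upstream of the start site, 5′ to 3′ on the gene's strand. Capitals mark GAGGAA or its complement TTCCTC. Fcgr3, at chr1:171059395-171059644 on the minus strand, and Fcgr1, at chr3:96293970-96294219 on the minus strand, encode Fc receptors. Mrc1 (the mannose receptor) lies at chr2:14229164-14229413, Trem2 at chr17:48346151-48346400 and Gpnmb at chr6:49036268-49036517, all on the plus strand.
Fcgr3: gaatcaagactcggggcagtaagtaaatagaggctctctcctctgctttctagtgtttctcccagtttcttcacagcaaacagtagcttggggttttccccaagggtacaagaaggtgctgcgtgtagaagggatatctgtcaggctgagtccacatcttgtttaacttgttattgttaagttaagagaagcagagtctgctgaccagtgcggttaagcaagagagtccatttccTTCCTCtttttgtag
Fcgr1: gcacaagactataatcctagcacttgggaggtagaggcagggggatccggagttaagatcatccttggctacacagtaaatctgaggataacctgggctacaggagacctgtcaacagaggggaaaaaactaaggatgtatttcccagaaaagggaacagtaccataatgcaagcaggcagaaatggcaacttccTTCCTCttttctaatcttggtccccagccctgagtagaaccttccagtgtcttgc
Mrc1: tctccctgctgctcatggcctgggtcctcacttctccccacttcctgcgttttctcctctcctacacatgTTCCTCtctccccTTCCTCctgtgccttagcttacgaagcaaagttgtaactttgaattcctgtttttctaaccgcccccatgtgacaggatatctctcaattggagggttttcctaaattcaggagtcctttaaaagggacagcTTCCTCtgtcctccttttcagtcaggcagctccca
Trem2: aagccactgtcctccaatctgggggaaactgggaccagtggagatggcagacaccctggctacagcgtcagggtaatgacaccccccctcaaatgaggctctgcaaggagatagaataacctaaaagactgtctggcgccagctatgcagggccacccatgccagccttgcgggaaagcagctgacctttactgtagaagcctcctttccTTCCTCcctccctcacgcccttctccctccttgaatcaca
Gpnmb: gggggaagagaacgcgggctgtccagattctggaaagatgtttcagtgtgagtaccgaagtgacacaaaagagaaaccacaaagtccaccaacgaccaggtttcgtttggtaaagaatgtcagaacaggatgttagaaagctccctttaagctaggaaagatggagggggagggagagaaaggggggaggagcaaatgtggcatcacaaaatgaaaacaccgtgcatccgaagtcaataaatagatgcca
The core occurs once in the Fcgr3, Fcgr1 and Trem2 windows and 3 times in that of Mrc1, each time as TTCCTC, and not in that of Gpnmb. Searched on both strands, GAGGAA was in 12 of the 26 promoters (46.2%), which belong to 11 genes (Aif1, Cd5l, Cd68, Ctss, Fcgr1, Fcgr3, Itgam, Marco, Mrc1, Trem2 and Vsig4), and in 23.3% of 32851 mouse promoters of the same length. The longer PU.1 core GAGGAAGT, which contains it, was in 0 of the 26 and in 2.44% of all promoters, and the shorter core was searched only after that. GAGGAAGG, also an extension of the core and chosen after the sequences had been read, was in 7 of the 26 (26.9%) and in 3.63% of all. Fcgr3 has 2 overlapping promoters that share the same site, so both the 12 and the 7 include that site 2 times. The MITF element CACGTG was in 0 of the 26 and in 6.02% of all. These are matches of letters in one window and not binding sites.

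Values are on the TPM scale, which is relative to transcript length and library total, and are called TPM below. The reads behind a value are unknown, so precision rests on the spread between mice. Between 16470 and 20502 genes were above 0 in each of the 30 libraries. Genes of the mitochondrial genome made up 53.27% to 60.12% of the total in iBAT libraries, against 12.12% to 20.59% in iWAT and liver. Because TPM is relative to the library total, this lowers the TPM of all other genes in iBAT. Fabp1 was at 0.2 to 51.8 TPM in LFABP-/- livers, against 9165.5 to 12697.6 TPM in WT livers. In iWAT it was at 196.1 TPM in the library labelled LFABP-/- replicate 1, above every LFABP-/- liver, at 0.2 to 0.9 TPM in the other LFABP-/- libraries and at 1.9 to 23.9 TPM in WT libraries. That library also had the highest sum of 12 hepatocyte markers in iWAT, 2680.3 TPM, against 110.1 to 615.3 TPM in the other 9. In iBAT, Fabp1 was at 0.4 to 21.2 TPM in LFABP-/- libraries, against 0.2 to 8.7 TPM in WT libraries. Markers of 19 lymphocyte genes split the iWAT libraries of both genotypes. They summed to 1390.1, 2638.7 and 2394.8 TPM in LFABP-/- replicates 2, 3 and 4 and to 936.1 and 3434.9 TPM in WT replicates 3 and 4, against 62.5 and 71.3 TPM in the other LFABP-/- and 40.3 to 51.5 TPM in the other WT libraries. The inguinal fat pad encloses a lymph node, and how much of it each sample held is not given in the sources used here.

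Of the 30 genes, 27 were highest in iWAT by the median over its 10 libraries and 3 in liver. The 3 were the Kupffer genes Clec4f, a lectin, Cd5l, which encodes a protein that macrophages secrete, and Vsig4, a complement receptor. Clec4f was at 51.8 to 169.9 TPM in liver, at 0 to 1.5 TPM in iWAT and at 0 to 1.6 TPM in iBAT. Cd5l was at 41.0 to 202.0 TPM in liver, 1.4 to 24.7 TPM in iWAT and 0 to 1.3 TPM in iBAT. Vsig4 was at 14.9 to 54.5 TPM in liver, 0.5 to 1.9 TPM in iWAT and 0 to 0.6 TPM in iBAT. For these 3 genes, then, no library of adipose tissue reached the lowest liver library, and the label of Kupffer cell genes held by tissue. It held less well for the other 4 genes of the class. Timd4 and Marco, receptors for phosphatidylserine and for bacterial and other particles, were each higher by median in iWAT than in liver, with overlapping ranges. Their high iWAT values were confined to the 5 libraries with high lymphocyte markers. In the other iWAT libraries Marco was at 1.8 to 3.6 TPM, below its lowest liver library (3.9 TPM). Timd4 was at 1.6 to 4.2 TPM in them, against 2.4 to 11.9 TPM in liver. Folr2 (a folate receptor) and Lyve1 (a hyaluronan receptor also found on lymphatic endothelium) were highest in iWAT.

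Of the 27 genes highest in iWAT, 13 had all iWAT libraries above all libraries of the other tissues. Lyz2 (lysozyme) was the most abundant of the 30, at 587.9 to 1981.6 TPM in iWAT, 37.7 to 98.8 TPM in iBAT and 48.9 to 243.1 TPM in liver. Gpnmb, which encodes a glycoprotein of lysosomes and the cell surface, was at 7.7 to 104.1 TPM in iWAT, 0.3 to 1.7 TPM in iBAT and 0.1 to 6.6 TPM in liver. The other 14 genes overlapped between iWAT and the next tissue. Msr1 (a scavenger receptor for modified lipoproteins) differed least, at 1.5 to 8.1 TPM in iWAT, 0.1 to 0.4 TPM in iBAT and 1.6 to 4.9 TPM in liver. In iBAT all 30 genes were at 11.6 TPM or less apart from Lyz2, Ctss and Tyrobp, of which Ctss, a lysosomal protease, reached 24.7 TPM and Tyrobp 13.2 TPM.

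**Figure D1:**
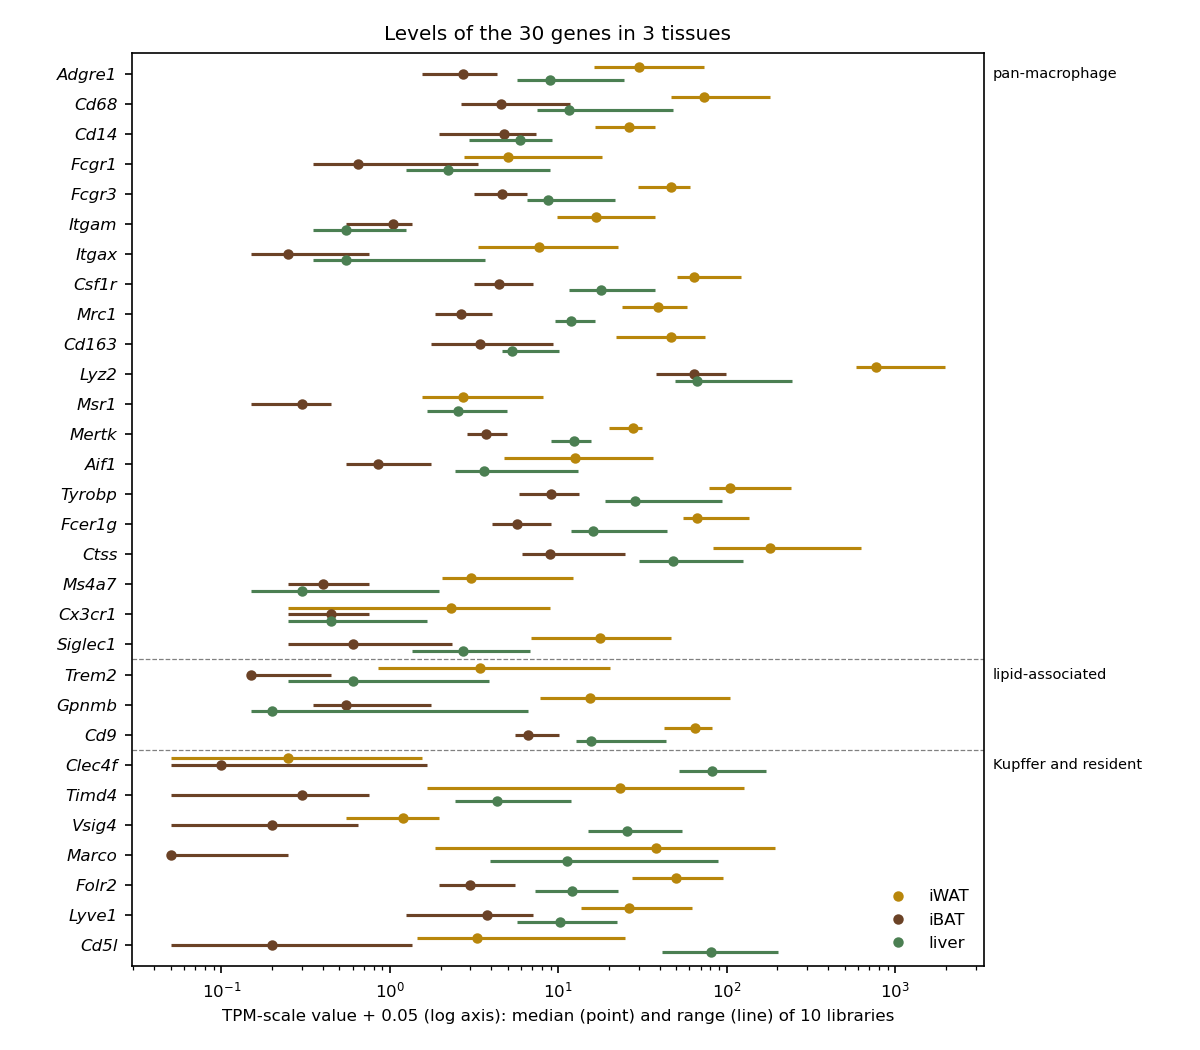
Level of each of the 30 genes in iWAT, iBAT and liver, as the median (point) and range (line) over 10 libraries of each tissue, on a log axis of the TPM-scale value plus 0.05. Clec4f, Cd5l and Vsig4 lie highest in liver, and the other 27 genes have their highest median in iWAT.

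In iWAT, macrophage genes were mostly lower in LFABP-/- mice, and 3 of them passed the test. Genes with a mean of at least 1 TPM over the 10 libraries were compared on log2(TPM + 0.5) with limma over all genes, and a gene was called at a Benjamini-Hochberg adjusted p under 0.1. Of the 29 genes tested, Adgre1, Cd14 and Fcgr3 were called, all lower (10.3%), against 1.45% of the 14668 genes tested that were called, 0.77% lower and 0.682% higher. The fold change on the log2 scale was below 0 for 24 of the 29, against 39.4% of all genes, with a median of -0.42, against 0.05 over all genes, and a range of -1.79 to 0.88. Unadjusted p was under 0.05 for 13 of them, against 10.4% of all genes. In 5 genes (Adgre1, Cd14, Fcgr1, Fcgr3 and Mrc1) every LFABP-/- library was below every WT library, against 1.66% of all genes.

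Adgre1 encodes F4/80, the surface protein most used to identify mouse macrophages, and lies on chromosome 17 (57358691 to 57483527, GRCm38). It was at 26.3, 16.3, 22.5, 22.4 and 25.9 TPM in LFABP-/- iWAT, against 34.0, 38.4, 72.9, 52.9 and 39.6 TPM in WT iWAT. The groups did not overlap, and WT replicates 3 and 4 were the highest. Means were 22.7 ± 4.01 and 47.6 ± 15.8 TPM (SD, n = 5 each), a log2 fold change of -1.01 (SE 0.213, limma adjusted p = 0.0731). An exact permutation test gave p = 0.0079, the smallest that 5 against 5 libraries allow.

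Cd14, on chromosome 18 (36725067 to 36726798), encodes the co-receptor that hands bacterial lipopolysaccharide to TLR4. It was at 20.5, 16.5, 23.4, 17.1 and 24.7 TPM in LFABP-/- iWAT, against 31.0, 27.7, 37.3, 29.3 and 32 TPM in WT iWAT. The spread within each genotype was small, and the groups did not overlap. Means were 20.4 ± 3.66 and 31.5 ± 3.65 TPM (SD, n = 5 each), a log2 fold change of -0.62 (SE 0.135, limma adjusted p = 0.0829). Tlr4 itself, outside the 30 genes, averaged 9.78 ± 1.84 TPM in LFABP-/- iWAT and 13.1 ± 1.20 TPM in WT iWAT (limma adjusted p = 0.232).

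Receptors for immunoglobulin G were also lower by mean, and 1 of them was called. Fcgr3, on chromosome 1 (171051174 to 171064935), encodes a low-affinity receptor. It was at 44.6, 29.5, 36.6, 33.9 and 41.1 TPM in LFABP-/- iWAT, against 48.6, 54.0, 60.6, 59.5 and 54.6 TPM in WT iWAT, again without overlap. Means were 37.1 ± 5.93 and 55.5 ± 4.81 TPM (SD, n = 5 each), a log2 fold change of -0.58 (SE 0.120, limma adjusted p = 0.0683). Fcgr1, on chromosome 3 (96282909 to 96293969), encodes the high-affinity receptor CD64. It was at 3.0, 3.1, 3.9, 4.9 and 2.7 TPM in LFABP-/- iWAT, against 5.1, 6.6, 18, 11.3 and 6.2 TPM in WT iWAT. The groups did not overlap but WT replicate 3 stood far above the others, and the log2 fold change of -1.18 (SE 0.318) did not pass (limma adjusted p = 0.161). Reads of Fc receptor genes can be shared among near-identical family members, so the split between them is uncertain. Their common signalling chain, Fcer1g, was at 54.8 to 82.7 TPM in LFABP-/- iWAT and 54.9 to 134.7 TPM in WT iWAT, with a log2 fold change of -0.22 (95% interval -0.81 to 0.37).

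Mrc1, the mannose receptor CD206 on chromosome 2, was at 29.5, 23.8, 31.0, 30.3 and 38.9 TPM in LFABP-/- iWAT, against 39.9, 39.1, 58.0, 49.3 and 39.6 TPM in WT iWAT. The highest LFABP-/- library was just under the lowest WT library, and the log2 fold change was -0.55 (SE 0.152, limma adjusted p = 0.173). Cd163, the scavenger receptor for haemoglobin bound to haptoglobin, was at 21.8 to 57.0 TPM (median 32.9) in LFABP-/- iWAT, against 36.3 to 73.7 TPM (median 61.5) in WT iWAT, with overlap. Cd68, a lysosomal membrane protein, was at 46.4 to 74.5 TPM (median 51.6) against 55.1 to 181.1 TPM (median 90.4) in WT. Siglec1, the sialic acid receptor CD169, was at 6.8 to 19.1 TPM in LFABP-/- iWAT and 14.2 to 46.4 TPM in WT iWAT. Itgam, the integrin chain CD11b, was at 9.8 to 17.7 TPM and 15.6 to 37.5 TPM, and Ms4a7 at 2.0 to 3.0 TPM in LFABP-/- and 2.2 to 12.1 TPM in WT iWAT. These 5 genes had log2 fold changes of -0.71 to -0.99 and unadjusted p under 0.05, but none passed after adjustment. Exons of Itgam overlap those of Gm49368, so reads may belong to either.

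The other pan-macrophage genes were less separated. Csf1r, the receptor on which macrophages depend, was at 50.6 to 72.9 TPM in LFABP-/- iWAT and 62.8 to 120.6 TPM in WT iWAT (log2 fold change -0.41, 95% interval -0.85 to 0.03). The adaptor Tyrobp was at 78.0 to 151.1 TPM and 94.6 to 239.2 TPM, with a log2 fold change of -0.40. Lyz2 (-0.30), Msr1 (-0.54), Ctss (-0.20), the dendritic cell and macrophage integrin Itgax (-0.03) and Mertk (-0.08), a receptor for the uptake of dying cells, had 95% intervals that included 0. Aif1 (IBA1, 0.28) and the fractalkine receptor Cx3cr1 (0.46) had higher means in LFABP-/- iWAT, with standard errors of 0.639 and 0.774. Aif1, Ctss, Itgax and Cx3cr1 were highest in the libraries with many lymphocyte transcripts.

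**Figure D2:**
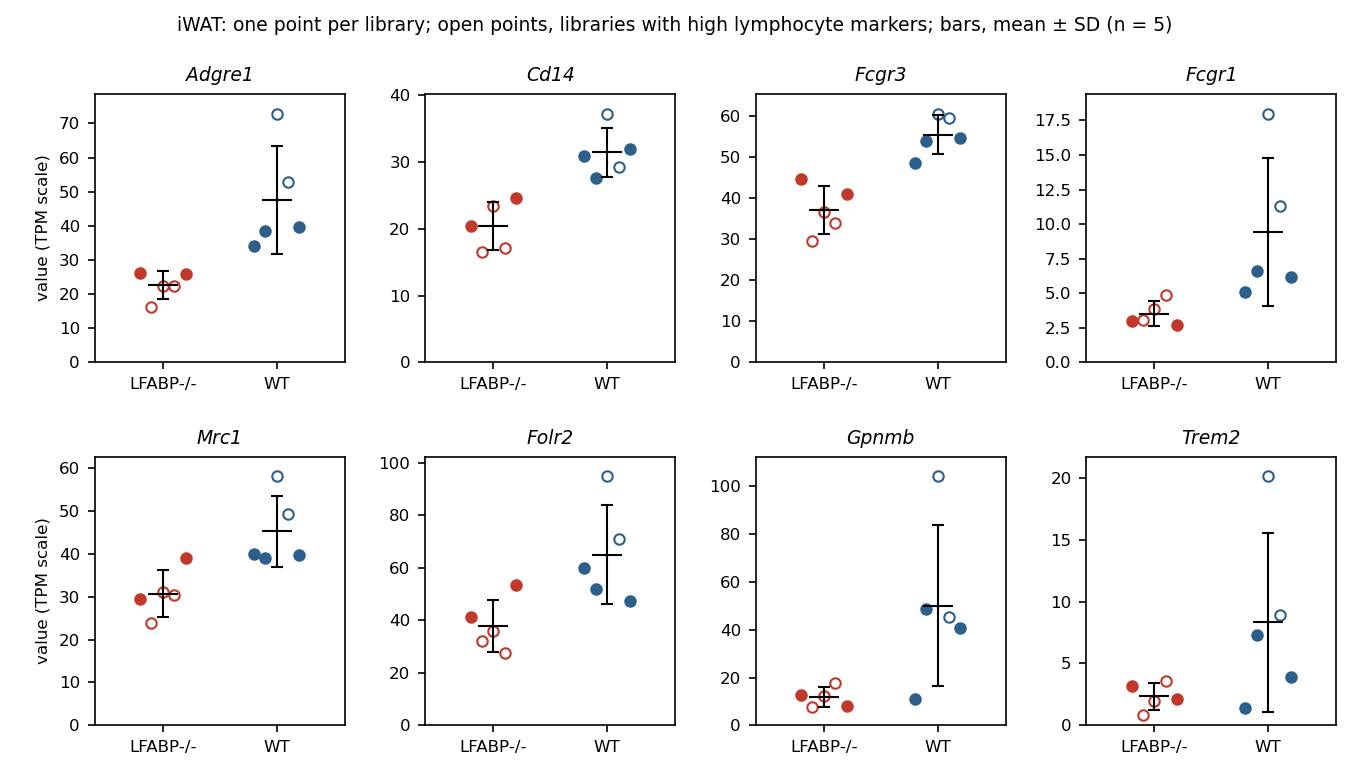
TPM-scale values of 8 genes in iWAT, 1 point per library, LFABP-/- to the left of WT, with bars for the mean ± SD (n = 5). Open points are the 5 libraries with high lymphocyte markers. For Adgre1, Cd14, Fcgr3, Fcgr1 and Mrc1 every LFABP-/- point lies below every WT point, and for Gpnmb and Trem2 WT replicate 1 lies among the LFABP-/- points.

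The lipid-associated genes had the lowest class median in iWAT, -1.32 over 3 genes, but limma called none (2 at an unadjusted p under 0.05). Gpnmb was at 12.8, 7.7, 12.4, 17.8 and 8.2 TPM in LFABP-/- iWAT, against 11, 48.8, 104.1, 45.3 and 40.9 TPM in WT iWAT. Thus 4 of the 5 WT libraries were above all LFABP-/- libraries and WT replicate 1 was among them. Means were 11.8 ± 4.10 and 50.02 ± 33.7 TPM (SD, n = 5 each), the farthest apart of the 29 genes on the log2 scale (-1.79, SE 0.496, limma adjusted p = 0.173). Trem2, the lipid receptor that names this macrophage state, was at 3.2, 0.8, 2.0, 3.6 and 2.1 TPM in LFABP-/- iWAT, against 1.4, 7.3, 20.1, 8.9 and 3.9 TPM in WT iWAT. The order of the WT libraries was the same as for Gpnmb apart from replicates 2 and 4, with replicate 3 highest and replicate 1 lowest (log2 fold change -1.32, SE 0.578, limma adjusted p = 0.458). Cd9, a tetraspanin that many cell types express, was at 42.1 to 79.4 TPM in LFABP-/- iWAT and 51.1 to 82.0 TPM in WT iWAT (log2 fold change -0.19, SE 0.205). Cd9 overlaps the antisense gene Gm26728, and strand use in the counting is not given in the sources used here.

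Of 14 further genes of lipid-associated macrophages, 11 had log2 fold changes below 0 in iWAT and 0 were called by limma (4 at an unadjusted p under 0.05), with a median of -0.23. Spp1 (osteopontin) was at 3.6, 2.4, 5.9, 3.8 and 2.4 TPM in LFABP-/- iWAT, against 6.1, 12.8, 53.1, 25.1 and 10.3 TPM in WT iWAT. As for Gpnmb and Trem2, WT replicate 3 was the highest, but here WT replicate 1 was above all LFABP-/- libraries (log2 fold change -2.08, SE 0.507, limma adjusted p = 0.122). Lipa, the lysosomal lipase, was also lower in every LFABP-/- library than in any WT library, with means of 29.2 ± 3.33 and 43.0 ± 11.4 TPM (limma adjusted p = 0.255). Atp6v0d2, a subunit of the proton pump that acidifies lysosomes, averaged 2.48 ± 1.66 TPM in LFABP-/- iWAT and 9.80 ± 7.70 TPM in WT iWAT (limma adjusted p = 0.330).

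Of the 7 Kupffer and resident genes, 6 were tested in iWAT and 0 were called by limma (1 at an unadjusted p under 0.05), 3 with log2 fold changes below 0 (median -0.05). Folr2 was at 41.1, 32.3, 35.9, 27.5 and 53.3 TPM in LFABP-/- iWAT, against 60.1, 52, 94.8, 71.1 and 47.3 TPM in WT iWAT. A single LFABP-/- library, replicate 5, was above the lowest WT libraries (log2 fold change -0.76, SE 0.218, limma adjusted p = 0.193). Exons of Folr2 overlap those of the antisense gene Gm10602. Timd4 and Marco did not follow the genotype. Timd4 was at 1.6, 50.9, 62.5, 42.2 and 4.2 TPM in LFABP-/- iWAT, against 4.1, 2.0, 60.1, 125.8 and 3.8 TPM in WT iWAT. Marco was at 3.3, 83.3, 113.3, 72.0 and 3.6 TPM in LFABP-/- iWAT, against 2.9, 2.9, 99.5, 193.0 and 1.8 TPM in WT iWAT. The high values of both genes were in the 5 libraries with high lymphocyte markers and in no other. Lyve1 was at 13.5 to 37.0 TPM and 16 to 61.8 TPM, Cd5l at 2.1 to 5.4 TPM and 1.4 to 24.7 TPM, and Vsig4 at 0.5 to 1.9 TPM and 0.7 to 1.4 TPM in LFABP-/- and WT iWAT. Clec4f was too low to test, at 0 to 1.5 TPM in LFABP-/- and 0.1 to 0.4 TPM in WT iWAT, and its value of 1.5 TPM was in LFABP-/- replicate 1, the library with the most hepatocyte transcripts.

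The calls in iWAT depended on which libraries entered. Without LFABP-/- replicate 1, whose Fabp1 went against its label, Fcgr3 alone was called (limma adjusted p = 0.0685), against 0.674% of all genes, while the median of the 29 genes was -0.36. Leaving out any other library gave 0 to 5 calls, and limma called 0 without each of LFABP-/- replicates 2, 3 and 4 and WT replicates 2, 3 and 5, with 9 to 14 genes at an unadjusted p under 0.05. The share of all genes called was 0.347% to 2.17% with a library left out, and 2.17% belonged to the 5 calls without WT replicate 1. LFABP-/- replicate 2, without which 0 were called, also stood apart for brown adipocyte markers. These summed to 1824.7 TPM in it, to 113.5 to 186.7 TPM in the other LFABP-/- and to 45.2 to 165.5 TPM in WT iWAT. It had the lowest LFABP-/- values of Adgre1, Cd14, Fcgr3, Mrc1, Gpnmb and Trem2, and the part of the brown adipocyte transcripts in this was not tested. The names of the called genes changed with the processing as well. In 1 fit of all 30 libraries Cd14 (limma adjusted p = 0.140) and Fcgr3 (0.174) were not called, and Adgre1, Fcgr1, Gpnmb, Itgam, Mrc1 and Ms4a7 were, against 6.49% of all genes. Median-ratio scaling left Adgre1, and quantile scaling Adgre1 and Fcgr1. No filter, the library name prefix or the hepatocyte covariate left Fcgr3. Under these settings 0.556% to 1.22% of all genes were called. With the mean of the lymphocyte markers as a covariate, 16 of the 29 genes were called, all lower, against 8.48% of all genes in either direction and 4.91% called lower. They were Adgre1, Cd14, Cd68, Csf1r, Ctss, Fcgr1, Fcgr3, Folr2, Gpnmb, Itgam, Lyz2, Mrc1, Ms4a7, Msr1, Siglec1 and Tyrobp, and Siglec1 had the smallest limma adjusted p (0.00307, log2 fold change -1.26). Without the 5 libraries with high lymphocyte markers, 2 LFABP-/- libraries (one of them replicate 1) and 3 WT libraries were left, and 0 of 28 genes were called with limma, against 0.0432% of all genes (0.0072% called lower), with 6 at an unadjusted p under 0.05, against 11.4% of all genes. The log2 fold change in those libraries was -0.51 for Adgre1, -0.42 for Cd14, -0.29 for Fcgr3, -0.94 for Fcgr1 and -1.04 for Siglec1, and 22 of the 28 were below 0, against 46.7% of all genes.

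Ligands and partners of these receptors, transcription factors and other leukocytes were read from lists in the same way. In iWAT, limma called 0 of 17 ligands and partners, 0 of 11 macrophage transcription factors, 0 of 7 monocyte, 0 of 8 dendritic cell and 1 of 8 neutrophil genes tested, with 2, 1, 2, 0 and 1 at an unadjusted p under 0.05. The call was Elane, neutrophil elastase, at 0.7, 1.0, 1.6, 1.4 and 1.9 TPM in LFABP-/- iWAT, against 2.8, 5.7, 7.5, 4.0 and 5.1 TPM in WT iWAT (log2 fold change -1.58, SE 0.275, limma adjusted p = 0.0403). Fcgr4, a further Fc receptor, averaged 3.66 ± 0.991 TPM in LFABP-/- and 7.68 ± 2.74 TPM in WT iWAT (limma adjusted p = 0.177). Mitf, a transcription factor of lysosomal genes, averaged 5.64 ± 0.783 and 8.46 ± 1.55 TPM without overlap (limma adjusted p = 0.171). The skeletal muscle markers, which summed to 5809.7 TPM in LFABP-/- replicate 4 and to 75.1 to 909.1 TPM in the other iWAT libraries, moved the calls when entered as a covariate, to 0 of the 29 genes with limma (10 at an unadjusted p under 0.05) and 0.368% of all genes, with log2 fold changes of -0.94 for Adgre1, -0.52 for Cd14 and -0.52 for Fcgr3.

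In iBAT the genes were at low levels and few differed. Only 15 of the 30 passed the filter, and Cd163 and Cd9 were called, both lower in LFABP-/- mice (13.3%), against 47.8% of all 11614 genes tested in either direction and 25.5% called lower. The share called was thus below that of all genes. An unadjusted p under 0.05 was found for the same 2 of the 15, against 48.3% of all genes. The fold change was below 0 for 10 of the 15, against 54.4% of all genes, and the median was -0.04, against -0.03 over all genes, and turned to 0.01 with median-ratio scaling. When mitochondrial and the 10 most abundant genes were removed before rescaling, 20 of the 30 passed the filter. Of these, 3 were called, all lower, against 48.7% of all genes. Cd163 was at 2.2, 4.0, 2.1, 1.7 and 2.8 TPM in LFABP-/- iBAT, against 4.4, 4.1, 2.5, 8.4 and 9.3 TPM in WT iBAT. WT replicates 4 and 5 were the highest, and WT replicate 3 lay within the LFABP-/- range. Means were 2.56 ± 0.896 and 5.74 ± 2.95 TPM (SD, n = 5 each), a log2 fold change of -0.94 (SE 0.325, limma adjusted p = 0.0426, and 0.0134 to 0.0986 with each library left out). With the lymphocyte covariate Cd163 was not called (limma adjusted p = 0.103), while Cd9 was called lower and Cd68, Ctss, Fcer1g and Mertk higher, against 45.9% of all genes. In iBAT the 19 lymphocyte markers summed to 2.5 to 7.8 TPM and 0 of them passed the filter, so this covariate rests on values near 0.

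Cd9 was at 6.0, 5.9, 6.6, 5.5 and 7.4 TPM in LFABP-/- iBAT, against 6.5, 6.1, 9.0, 9.7 and 10.1 TPM in WT iBAT. The groups overlapped through WT replicates 1 and 2 (log2 fold change -0.35, SE 0.146, limma adjusted p = 0.0794), and the call was lost without LFABP-/- replicates 1, 2, 3 or 4 or WT replicates 3, 4 or 5 (limma adjusted p up to 0.172). Skeletal muscle markers were also highest in WT replicates 4 and 5, at 22854 and 45666 TPM in sum, and with these markers as a covariate Cd163 (limma adjusted p = 0.0439) and Cd9 (limma adjusted p = 0.0864) were called. Splitting the mice by the prefix of their library names, G30 or G32, gave log2 differences of Cd163 of -0.23 and -1.81 and of Cd9 of -0.24 and -0.58.

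Mertk was at 4.5, 4.9, 3.8, 4.8 and 2.8 TPM in LFABP-/- iBAT, against 3.7, 3.6, 3.2, 3.2 and 3.0 TPM in WT iBAT. In 4 of 5 LFABP-/- libraries it was above all WT libraries (log2 fold change 0.26, SE 0.133, limma adjusted p = 0.149). With each library left out the limma adjusted p was 0.00922 to 0.286, and it was under 0.1 only without LFABP-/- replicate 5. Cd14 was at 5.3, 3.9, 2.6, 5.1 and 1.9 TPM in LFABP-/- iBAT, against 4.3, 7.3, 5.6, 3.4 and 6.3 TPM in WT iBAT (log2 fold change -0.50, SE 0.273, limma adjusted p = 0.172). Csf1r was at 4.0, 5.7, 3.1, 4.4 and 3.1 TPM against 4.7, 4.4, 4.1, 5.6 and 7.0 TPM in WT (log2 fold change -0.32, SE 0.178, limma adjusted p = 0.181), with overlap as for Cd14. Adgre1, lower in iWAT, was at 1.5 to 3.7 TPM in LFABP-/- and 2.3 to 4.3 TPM in WT iBAT (log2 fold change -0.32, 95% interval -0.81 to 0.18), and Fcgr3 was at 3.1 to 6.1 TPM and 3.7 to 6.5 TPM (95% interval -0.41 to 0.40). The other 8 genes tested (Cd68, Mrc1, Lyz2, Tyrobp, Fcer1g, Ctss, Folr2 and Lyve1) had log2 fold changes of -0.26 to 0.43 and adjusted p of 0.298 or more in limma.

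Among the 15 genes below the filter in iBAT, 2 Kupffer genes separated the genotypes, Clec4f and Cd5l, both higher in LFABP-/- iBAT. Of the 11614 genes that passed the filter, 12.1% were higher without overlap. The share among genes below the filter was not computed. Clec4f was at 1.1, 1.6, 1.4, 0.2 and 0.1 TPM in LFABP-/- iBAT and was listed at 0 in all 5 WT libraries. Cd5l was at 0.6, 1.3, 1.2, 0.2 and 0.4 TPM in LFABP-/- iBAT, against 0.1, 0, 0.1, 0.1 and 0 TPM in WT iBAT. Values this close to the last decimal of the table are coarse. An exact permutation test gave p = 0.0079 for each, the smallest possible. That value follows from the separation by which these 2 genes were picked, so it adds nothing to it. Vsig4 was at 0.1 to 0.6 TPM in LFABP-/- and 0 to 0.2 TPM in WT iBAT, and Marco at 0 to 0.2 TPM in LFABP-/- and at 0 in all WT libraries. With no filter, these 4 genes were called higher in iBAT and Cx3cr1, at 0.2 to 0.4 TPM in LFABP-/- and 0.4 to 0.7 TPM in WT iBAT, was called lower. Cd163 was called and Cd9 was not, so 6 of the 30 were called, against 31.5% of 21144 genes.

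Transcripts of hepatocytes were distributed in the same way over the iBAT libraries. The 12 hepatocyte markers summed to 1483.9, 2222.8, 1934.7, 386.6 and 219.8 TPM in LFABP-/- iBAT, against 87.3, 10.7, 10.1, 58.9 and 118.0 TPM in WT iBAT, and all 12 were called higher. Clec4f and Cd5l, like these markers, were highest in LFABP-/- replicates 1, 2 and 3. The part of liver transcripts in the iBAT values of Kupffer genes was not tested, and with the hepatocyte markers as a covariate, chosen after seeing the data, 0 of the 15 genes tested were called by limma (2 at an unadjusted p under 0.05), against 3.63% of all genes, and their median log2 fold change was -0.58, against -0.13 over all genes. These markers did not overlap between the genotypes in iBAT, so the covariate and the genotype can hardly be told apart. The remaining 11 untested genes (Fcgr1, Itgam, Itgax, Msr1, Aif1, Ms4a7, Cx3cr1, Siglec1, Trem2, Gpnmb and Timd4) were at 0.1 to 3.3 TPM in LFABP-/- iBAT and 0 to 1.5 TPM in WT iBAT.

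**Figure D3:**
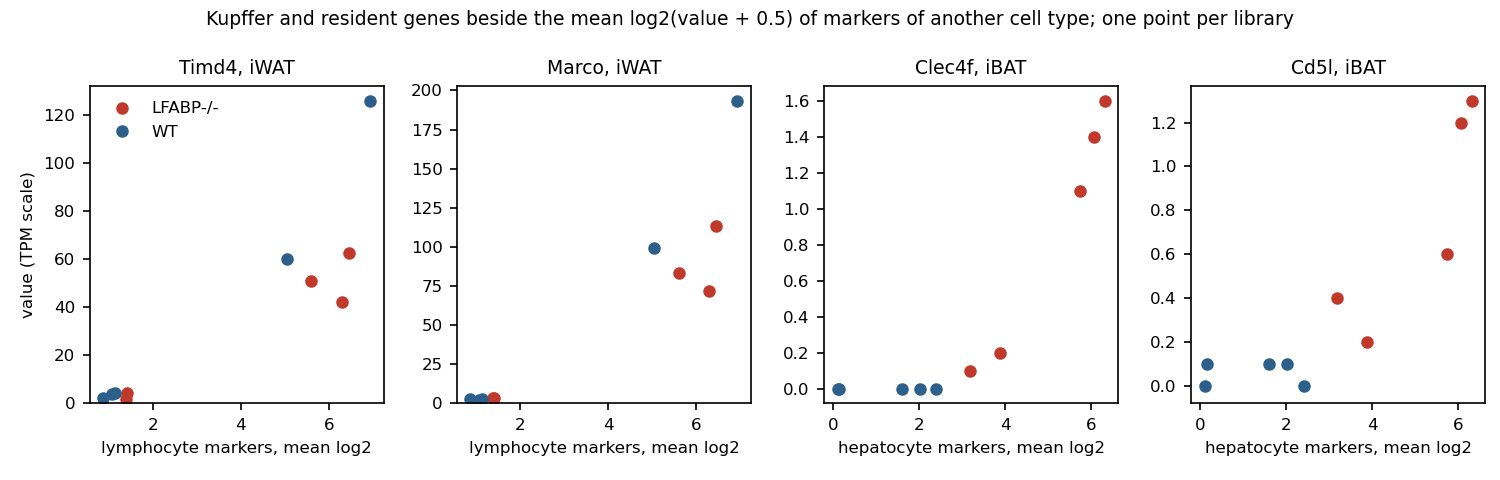
TPM-scale values of Timd4 and Marco in iWAT against the mean log2(TPM + 0.5) of lymphocyte markers, and of Clec4f and Cd5l in iBAT against that of hepatocyte markers, 1 point per library. Timd4 and Marco are high in 5 iWAT libraries of both genotypes, and Clec4f and Cd5l are highest in the 3 LFABP-/- iBAT libraries with the most hepatocyte transcripts.

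In iBAT the context lists ranged from 0 of 12 skeletal muscle genes called to 12 of 12 hepatocyte genes. Of 11 further lipid-associated genes tested, 7 were called higher and 0 lower (Lgals3, Fabp5, Lipa, Ctsd, Lpl, Plin2 and Nceh1), against 22.3% of all genes called higher. Brown adipocytes and hepatocytes also express most of these. Plin2, which coats lipid droplets, averaged 1036 ± 234 TPM in LFABP-/- iBAT and 378 ± 102 TPM in WT iBAT (log2 fold change 1.47, SE 0.206, limma adjusted p = 0.000592). Nceh1, a cholesteryl ester hydrolase, averaged 12.9 ± 3.91 and 2.24 ± 1.07 TPM (log2 fold change 2.34, limma adjusted p = 0.000355), and Lgals3, the galectin often used as a macrophage marker, 15.2 ± 8.81 and 3.82 ± 1.42 TPM (log2 fold change 1.73, limma adjusted p = 0.00689). Of 15 ligands and partners tested, 5 were called, Hp and Tgfb1 higher and Il34, Tlr4 and C3 lower, against 47.8% of all genes. Il34, a ligand of CSF1R, averaged 2.40 ± 0.224 TPM in LFABP-/- and 3.74 ± 0.568 TPM in WT iBAT (log2 fold change -0.54, limma adjusted p = 0.00251). Hp encodes haptoglobin, which CD163 takes up with haemoglobin, and averaged 939 ± 243 TPM in LFABP-/- and 640 ± 98.6 TPM in WT iBAT (log2 fold change 0.53, limma adjusted p = 0.0444). Of 10 macrophage transcription factors tested, 3 were called against the same 47.8%, Cebpb higher and Nr1h3, the liver X receptor alpha, and Mitf lower.

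In liver, 24 of the 30 genes were tested and 1, Mertk, was called, lower in LFABP-/- mice (4.17%), against 16.9% of all 11629 genes tested in either direction and 13.9% called lower. The fold change was below 0 for 21 of the 24, against 67.2% of all genes, and the median was -0.27, against -0.10 over all genes. Median-ratio scaling raised the median of all liver genes by over 0.1, to 0.003, and that of the 24 genes to -0.15. No gene separated the genotypes, against 10% of all genes, 8.63% with LFABP-/- lower. Mertk was at 9.6, 12.6, 12.2, 11.3 and 9.0 TPM in LFABP-/- liver, against 13.5, 12.8, 14, 12.1 and 15.6 TPM in WT liver, where only WT replicate 4 lay within the LFABP-/- range. Means were 10.9 ± 1.58 and 13.6 ± 1.33 TPM (SD, n = 5 each), a log2 fold change of -0.31 (SE 0.108, limma adjusted p = 0.0939, exact permutation p = 0.0238). The call was kept without LFABP-/- replicates 2 or 3 or WT replicate 4 and lost without each of the other 7 libraries (limma adjusted p up to 0.196). It was also lost with median-ratio scaling (log2 fold change -0.20, limma adjusted p = 0.203), quantile scaling (0.222), library weights (0.109) and the lymphocyte covariate (0.162), and under each of these Cd14 was called instead.

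Cd14 went the other way in liver. It was at 7.5, 9.1, 6.0, 6.2 and 5.8 TPM in LFABP-/- liver, against 4.2, 4.6, 3.7, 2.9 and 7.7 TPM in WT liver. All LFABP-/- libraries were above WT replicates 1 to 4, and WT replicate 5 was among the highest (log2 fold change 0.58, SE 0.211, limma adjusted p = 0.105). Without WT replicate 5 it was called higher (log2 fold change 0.77, limma adjusted p = 0.0214), and it was then the only call among the 24 genes. With all 10 livers it was called higher with median-ratio scaling (limma adjusted p = 0.0479), quantile scaling (0.0407), library weights (0.0214) and the lymphocyte covariate (0.0411). Siglec1 was at 1.5, 3.9, 1.9, 1.9 and 1.8 TPM in LFABP-/- liver, against 3.5, 3.7, 3.4, 1.3 and 6.7 TPM in WT liver (log2 fold change -0.57, SE 0.325, limma adjusted p = 0.273). Fcgr1 was at 1.2, 2.2, 1.7, 2.3 and 1.8 TPM against 2.4, 2.9, 2.1, 1.5 and 8.9 TPM in WT (log2 fold change -0.58, SE 0.35, limma adjusted p = 0.304). Mrc1 was at 9.7, 13.5, 12.7, 9.5 and 10.5 TPM against 11.9, 11.9, 14.4, 10.9 and 16.5 TPM in WT (log2 fold change -0.22, SE 0.134, limma adjusted p = 0.306). In these 3 genes the highest value was in WT replicate 5.

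That library stood apart for most macrophage genes of the liver. The 7 Kupffer and resident genes summed to 571.1 TPM in WT replicate 5, and to 162.6 to 279.0 TPM in LFABP-/- and 129.0 to 231.1 TPM in the other WT livers. Marco was at 88.2 TPM in it, at 4.3 to 14 TPM in LFABP-/- and at 3.9 to 13.2 TPM in the other WT livers. Lyz2 was at 243.1 TPM in it, at 48.9 to 71.8 TPM in LFABP-/- and at 55.2 to 80.3 TPM in the other WT livers. Markers of other leukocytes were also highest in it. Lymphocyte markers summed to 31.9 TPM in it, to 8.2 to 14.9 TPM in LFABP-/- and to 9.9 to 14.6 TPM in the other WT livers. Dendritic cell markers summed to 11.6 TPM, against 3.9 to 6.2 TPM in the other 9, and neutrophil markers to 15.4 TPM, against 2.1 to 10.2 TPM. Their part in the macrophage values of this library was not tested. Without WT replicate 5 the median log2 fold change of the 24 genes was -0.004, against -0.05 over all genes, and Mertk was not called (log2 fold change -0.26, limma adjusted p = 0.149).

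The Kupffer genes overlapped widely between the genotypes in liver, with 0 of 7 called by limma (0 at an unadjusted p under 0.05) and a median of -0.04. Clec4f was at 65.1 to 110.3 TPM (median 82.7) in LFABP-/- liver and 51.8 to 169.9 TPM (median 80.4) in WT liver (log2 fold change -0.02, 95% interval -0.60 to 0.56). Cd5l was at 55.3 to 99.1 TPM (median 83.1) and 41.0 to 202.0 TPM (median 73.4), with a 95% interval of -0.80 to 0.70. Vsig4 was at 16.5 to 28.3 TPM (median 26.8) and 14.9 to 54.5 TPM (median 22.2), with a 95% interval of -0.68 to 0.59. These intervals leave room for differences in either direction. Timd4 was at 3.1 to 5.2 TPM in LFABP-/- and 2.4 to 11.9 TPM in WT liver, Folr2 at 9.6 to 14.2 TPM and 7.2 to 22.5 TPM, and Lyve1 at 8.7 to 12.8 TPM and 5.6 to 22.1 TPM. Of the lipid-associated genes Cd9 alone was tested, at 12.9 to 24 TPM in LFABP-/- and 12.6 to 43.8 TPM in WT liver (log2 fold change -0.30, SE 0.312). Gpnmb was at 0.1 to 0.7 TPM and 0.1 to 6.6 TPM, and Trem2 at 0.2 to 1.0 TPM and 0.2 to 3.8 TPM, in LFABP-/- and WT liver, with the highest value of each in WT replicate 5.

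The other 11 pan-macrophage genes tested in liver (Adgre1, Cd68, Fcgr3, Csf1r, Cd163, Lyz2, Msr1, Aif1, Tyrobp, Fcer1g and Ctss) had log2 fold changes of -0.54 to -0.009 and adjusted p of 0.328 or more in limma. Itgam, Itgax, Ms4a7 and Cx3cr1 were at 0.1 to 0.7 TPM in LFABP-/- and 0.1 to 3.6 TPM in WT liver and were not tested. From the context lists, the complement protein C3, whose fragments VSIG4 binds, averaged 1812 ± 166 TPM in LFABP-/- liver and 2766 ± 206 TPM in WT liver (log2 fold change -0.61, SE 0.0894, limma adjusted p = 0.00896). C3 was the 1 call, lower, among 14 ligands and partners tested. Of 14 further lipid-associated genes tested, 2 were called lower, Lipa and Nceh1, against 13.9% of all genes called lower. Of 10 macrophage transcription factors tested 1 was called higher, Cebpb, and of 2 monocyte genes 1, Nr4a1, against 3.08% of all genes called higher. Hepatocytes make most of the C3 of liver, and these lists are not specific to macrophages in this tissue.

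**Figure D4:**
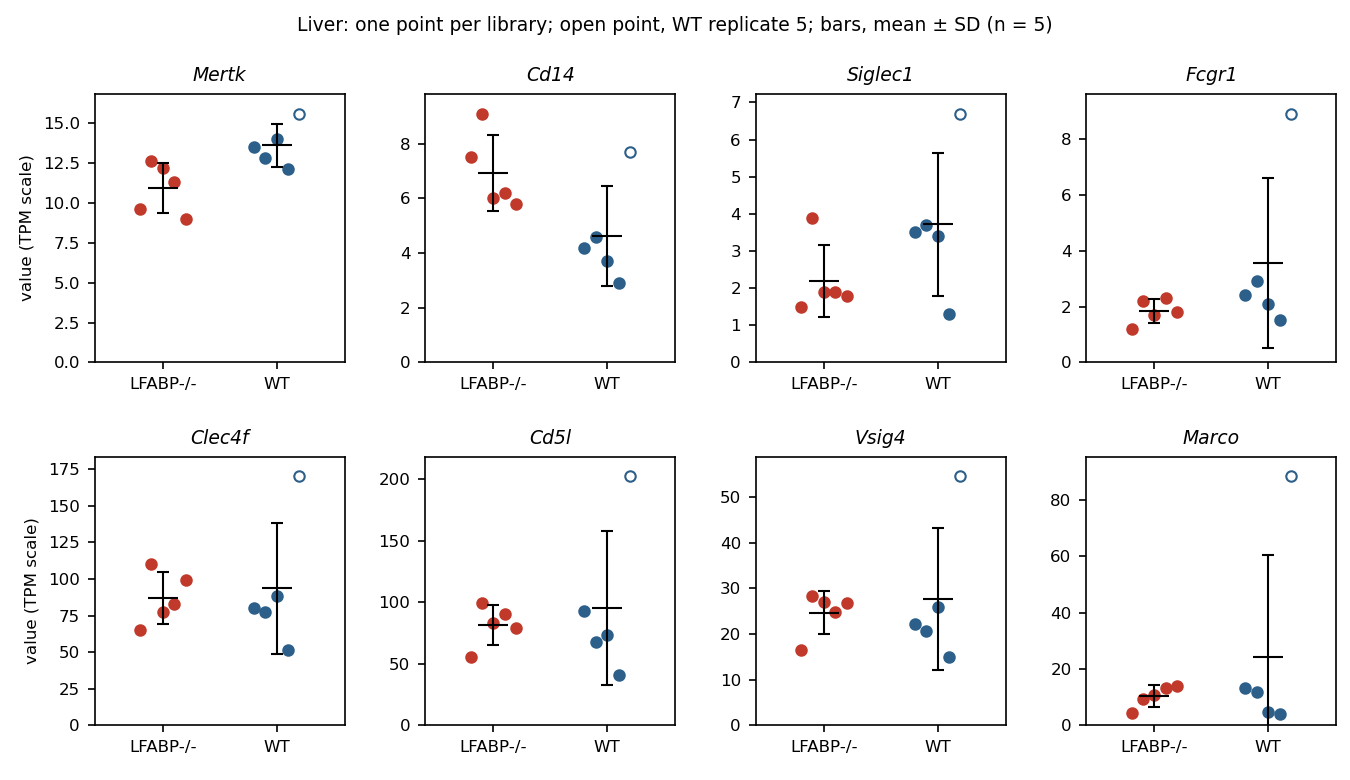
TPM-scale values of 8 genes in liver, 1 point per library, LFABP-/- to the left of WT, with bars for the mean ± SD (n = 5). The open point is WT replicate 5, the highest WT library for all 8 genes, and the lower bar of Marco is cut off at 0.

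**Figure D5:**
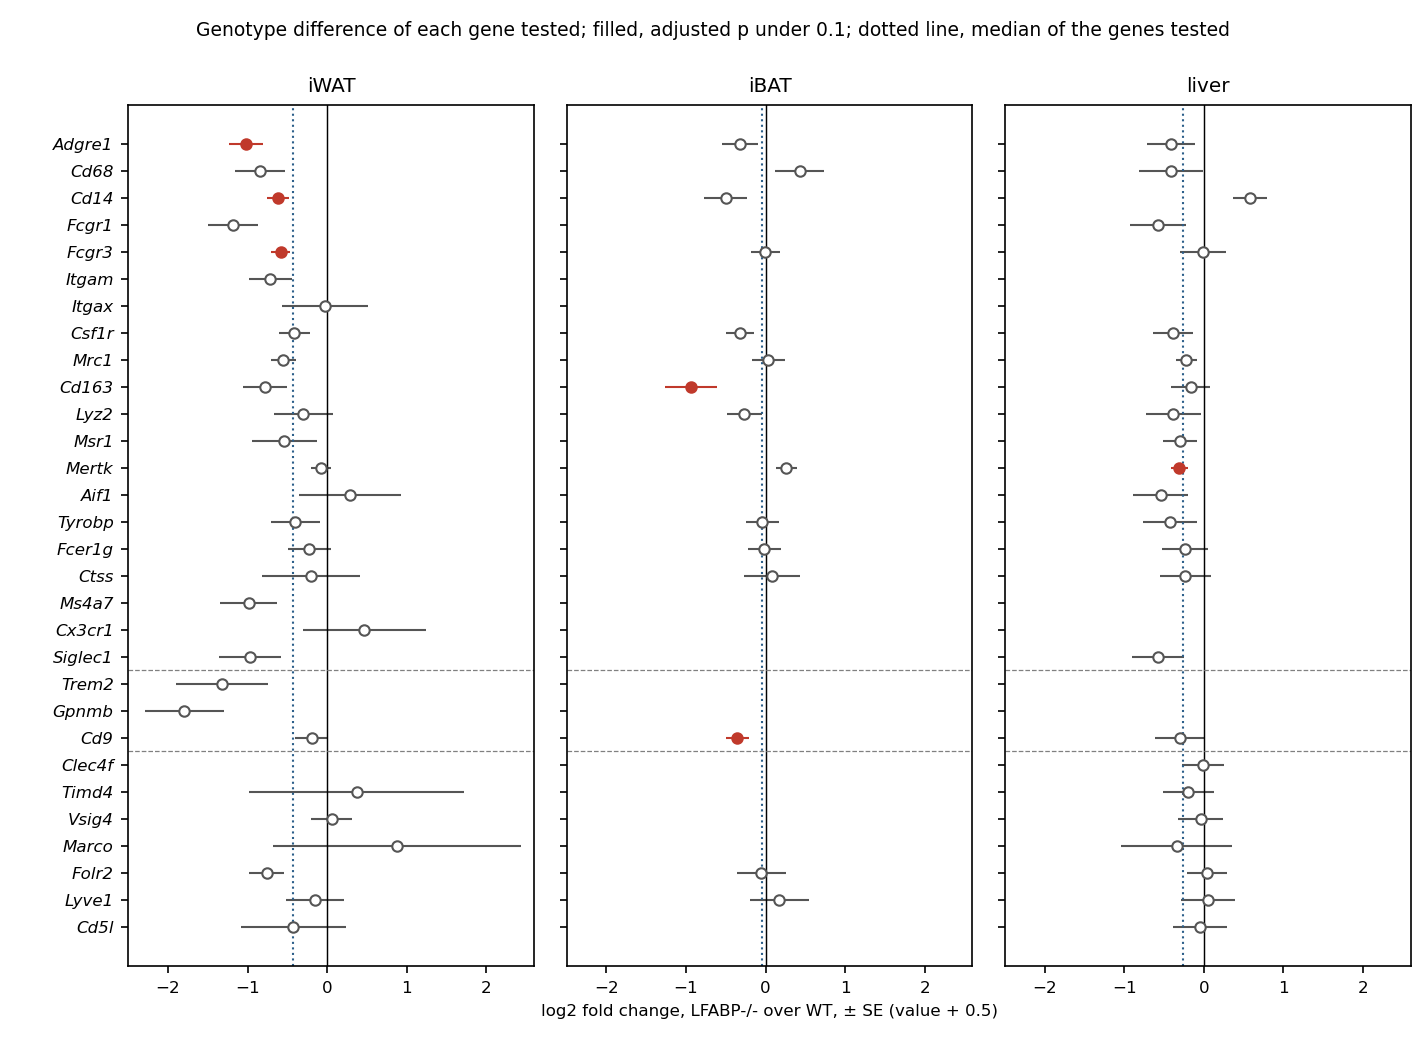
Genotype difference on log2(TPM + 0.5) for each gene tested in iWAT, iBAT and liver, LFABP-/- over WT, with filled points for genes called at an adjusted p under 0.1 and a dotted line for the median of the genes tested. The median lies at -0.42 in iWAT, -0.04 in iBAT and -0.27 in liver, and 3, 2 and 1 genes are filled.

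The genotype difference was then compared from tissue to tissue in a joint limma fit of the 30 libraries, with a random effect for the mouse, where all 30 genes passed the filter. The correlation within a mouse was estimated at -0.0151, so this effect had little weight. The fit takes 1 spread per gene for all tissues, although spreads differ between them. The genotype difference varied for 4 genes in at least 1 tissue comparison, and the share of all genes that did so was not computed. In each comparison the share of the 30 genes called was below that of all genes. Between iWAT and iBAT, Fcgr1 was called (difference of log2 fold changes -1.54, limma adjusted p = 0.0773), 1 gene of 30, against 11.2% of all genes. In iBAT alone Fcgr1 was below the filter, at 0.3 to 3.3 TPM in LFABP-/- and 0.4 to 0.9 TPM in WT libraries. The 3.3 TPM was in LFABP-/- replicate 2. Between iWAT and liver, Cd14 was called (-1.20, limma adjusted p = 0.0553), against 3.54% of all genes. Between iBAT and liver, Cd14 (-1.08, limma adjusted p = 0.0301), Mertk (0.57, limma adjusted p = 0.0400) and Clec4f (1.30, limma adjusted p = 0.0912) were called, against 15.1% of all genes. Cd14 was thus lower in LFABP-/- iWAT and higher by mean in LFABP-/- liver. Over the 19 settings tried, the one reported included, a gene was counted when at least 1 of the tissue comparisons called it. On this count Cd14 was called under 19, Mertk under 17, and Clec4f and Fcgr1 under 10 each. The share of all genes on the same count was not computed. At an adjusted p under 0.05, Cd14 was called between iBAT and liver but not between iWAT and liver. Clec4f was near 0 in all iBAT libraries, so its difference rests on values of 1.6 TPM or less.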

How the data were processed

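Poly(A) RNA was read as single reads on a NovaSeq. Per the methods, the authors quantified it with CLC Genomics Workbench on GRCm38, using gene models of Ensembl release 92. The headers of the deposited table name RPKM, but every column adds up to 999967.3 to 999996.4, so the deposited values were taken as TPM, rounded to 1 decimal by the authors. This unit was settled from the column sums. Read depth is not given in the sources used here, so counting error could not be computed.

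Groups followed the labels. The members and the lists of other genes were chosen with earlier results of these data known. Within each tissue, genes with a mean of at least 1 were compared on log2(value + 0.5), which understates fold changes of low genes, with limma 3.58.1 in R 4.3.3 (moderated linear fit with an intensity trend, two-sided, adjusted after Benjamini and Hochberg over all genes tested, called under 0.1). An exact permutation test, two-sided, ran over 252 assignments for each member. Differences between tissues used statmod 1.5.0 for the mouse effect. The procedure was tested on simulated data. Every member is accounted for. Values per library are given for called members and the 5 with the smallest p in each tissue, and those of Gpnmb, Trem2, Folr2, Timd4, Marco, Clec4f, Cd5l and Spp1 were added after their values were seen. From each other list, called genes and up to 3 with the smallest p could be named. Within a group, libraries shared at most 5.06% of values, so none was a copy. The library name prefix (G30 or G32), taken per mouse, served as a possible batch. For WT replicates 4 and 5 it was read from iBAT and liver as G32, although their iWAT headers show G30, so the prefix result in iWAT rests on this coding by mouse.

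Alternatives were pseudocounts of 0.1 and 1, filters at 0 and at a mean of 20, scaling by median ratios or quantiles, removal of mitochondrial and the 10 most abundant genes before rescaling, no trend, library weights, a replicate block, the prefix, lymphocyte and muscle covariates, 1 joint fit, a threshold of 0.05 and leaving out each library. A hepatocyte covariate was chosen after seeing the data. Gene positions came from GENCODE and promoters from RefSeq (GRCm38.p6). Python 3.11.15 with pandas 2.3.3, NumPy 2.4.6, SciPy 1.17.1 and matplotlib 3.10.9 served for the rest.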

Additional observations from a re-analysis of the deposited data

Results flagged for a closer look

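Among 136 groups of 5 libraries, 1 library lay far from the other 4 in 8 (5.88%), where chance gives about 1 in 20, or 6.8, and all 8 were in liver. LFABP-/- liver replicate 1 was the lowest for 4 genes. Vsig4 was at 16.5 TPM in it, against 24.8 to 28.3 TPM in the other LFABP-/- livers. Ctss was at 31.2 TPM, against 44.2 to 50.7 TPM. Lyz2 was at 48.9 TPM, against 66.0 to 71.8 TPM, and Msr1 at 1.6 TPM, against 2.3 to 2.6 TPM. LFABP-/- liver replicate 2 was the highest for the receptors Cd163, at 10.1 TPM against 4.7 to 5.6 TPM in the other LFABP-/- livers, and Siglec1, at 3.9 TPM against 1.5 to 1.9 TPM. WT liver replicate 5 was the highest for Lyz2, at 243.1 TPM against 55.2 to 80.3 TPM in the other WT livers, and for Fcgr3, at 21.6 TPM against 6.5 to 8.6 TPM.

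The genotype difference varied between tissues for 4 of the 30 genes in the joint limma fit. Called were 1 in iWAT minus iBAT, 1 in iWAT minus liver and 3 in iBAT minus liver. The shares of all genes called in these comparisons were 11.2%, 3.54% and 15.1%, each above the share of the 30 genes. The difference of log2 fold changes was -1.54 for Fcgr1 in iWAT minus iBAT, -1.20 for Cd14 in iWAT minus liver, and -1.08 for Cd14, 0.57 for Mertk and 1.30 for Clec4f in iBAT minus liver.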

How the results depend on the processing

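The genes given per library in a tissue by rule kept their sign under every alternative run, but counts of called genes moved. In iWAT (3 genes called) the count was 1 with no filter (0.556% of all genes called), median-ratio scaling (0.692%) or the prefix as a term (1.22%). It was also 1 with the hepatocyte covariate (1.17%), chosen after seeing the data. It was 6 in 1 fit of all 30 libraries (6.49%) and 16 with the lymphocyte covariate (8.48%). With library weights it was 16, 10 lower and 6 higher, where 62.4% of all genes were called. It was 0 with the muscle covariate, at an adjusted p under 0.05 and without the 5 libraries with high lymphocyte markers. With each library left out it was 0 to 5, the median log2 fold change -0.59 to -0.27. In iBAT (2 called) it was 6 with no filter (31.5% of all genes called) and 5 with the lymphocyte covariate (45.9%). It was 1 in the joint fit or at an adjusted p under 0.05. It was 0 with a mean of 20 (48.2%), where Lyz2 alone was tested. It was also 0 with the hepatocyte covariate (3.63%), where the median was -0.58. With each library left out it was 1 to 3, the median -0.23 to 0.06. In liver (1 called, Mertk) the count of 1 was Cd14 in place of Mertk with median-ratio or quantile scaling, library weights or the lymphocyte covariate. It was 0 with no filter, a mean of 20 (6 genes tested), rescaling, no trend, the prefix, the muscle covariate, the joint fit or an adjusted p under 0.05 (limma, 0 to 2 genes at an unadjusted p under 0.05), and 0 to 2 with each library left out, the median -0.41 to -0.004. With the replicate block the count was 5 in iWAT (without Fcgr3, limma adjusted p = 0.120), against 1.69% of all genes. It was 3 in iBAT, against 48.7% of all genes, and 0 in liver. Same-numbered mice did not all deviate together (correlations of -0.53 to 0.669 over the tissues), and the numbers were not taken as a pairing. Genes whose difference varied between tissues (4) numbered 2 at an adjusted p under 0.05 or with no filter, and 9 with median-ratio scaling. They numbered 12 with the lymphocyte covariate and 2 to 7 with a mouse left out. The share of all genes was not computed for these counts, so they cannot be read as particular to these genes. The median log2 fold change turned sign with library weights in iWAT (0.004, against 0.25 over all genes), with the lymphocyte covariate in liver (0.06) and in iBAT (0.19), and in iBAT also with no filter (0.04), median-ratio scaling (0.01), quantile scaling (0.02), the prefix (0.02) and 4 of the libraries left out. The cause of these moves was not tested. Leaving out a library leaves 4 against 5. With depth unknown and values rounded to 1 decimal, differences in genes under 1 TPM could not be resolved.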
